A study of Arabidopsis thaliana with 24 samples.

Results

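The genes described here are 10 small heat shock proteins and co-chaperones of Arabidopsis thaliana, of 22746 probe sets tested. They were chosen by name, with earlier results of these data known. Counts of members set beside the share of all probe sets therefore describe that choice in part. Of the 10, 8 are probe sets that the platform annotation names AT1G53540, AT5G37670, AT1G52560, ATHSP22.0 (AT4G10250), AT5G51440, AT1G54050, AT5G48570 and Fes1A (AT3G09350). The other 2 probe sets carry no gene name in that annotation. They were included as HSP21 and HSP18.1, which was not checked here, so they are called the probe sets listed as HSP21 and HSP18.1. Each member had 1 probe set, and all 10 were tested.

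The study measured whole 13-day-old seedlings of ecotype Col-0 on 24 Affymetrix ATH1 arrays. There were 8 groups of 3 arrays, which cross the genotypes ALC::TOC1 and wild type with constant light (LL) and 12:12 light-dark cycles (LD), and with 2.5% ethanol and mock treatment. ALC::TOC1 is a line in which ethanol is the inducer of TOC1, a repressor in the circadian clock, by way of the fungal ALC switch. All plants grew in light-dark cycles for 12 days, and the LL plants then spent 1 day in constant light. Every group, mock included, was submerged for 3 h in medium with MG132, a proteasome inhibitor stated as 20 mM, and was harvested at ZT1, 1 h after the lights came on or, in LL, after subjective dawn. The labels name no promoter for the switch and do not say how many independent lines were used, and no group analysed here carried the switch without TOC1.

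Small heat shock proteins bind unfolding proteins and keep them from aggregating until chaperones that use ATP, such as HSP70 and HSP100, refold them. Plants have more of them than most organisms, with forms directed to the cytosol, nucleus, mitochondria, chloroplasts, endoplasmic reticulum and peroxisomes. Their genes are nearly silent in unstressed leaves, and heat shock factors switch them on when proteins are damaged. Co-chaperones act on the refolding chaperones themselves. Fes1A binds cytosolic HSP70 and protects it from degradation in the heat, and AT5G48570 encodes a peptidyl-prolyl isomerase of the FK506-binding family that binds HSP90.

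Values are the deposited log2 levels made with RMA, which allow a probe set to be compared between arrays but not with another probe set. Within groups, r between arrays was 0.9885 to 0.9968. Wild-type LD ethanol replicate 1 was the lowest of its group for 10 of 10 members and for 30% of all probe sets. Such counts were high elsewhere too. They were 9 of 10 for wild-type LL ethanol replicate 3 (31.2% of all probe sets). ALC::TOC1 LL mock replicate 1 (38.3%) and wild-type LD mock replicate 2 (43.4%) had 8 of 10 each. In wild-type LD ethanol replicate 1 the GAPDH 3'/5' difference, which is larger in degraded RNA, was 1.57 log2, against 0.86 and 0.95 in replicates 2 and 3. The actin and ubiquitin differences of that array were the highest of the 24 arrays. The other group with high GAPDH differences was wild-type LL mock, with 1.28 to 1.58. Of the fixed tissue markers, 3 of 10 for root and 0 of 6 for shoot had a named probe set, so the shoot part of the label could not be checked with them. The root gene PYK10, a beta-glucosidase, had group means of 11.08 to 12.20, and the root hair expansins EXPA7 and EXPA18 had means of 4.0 to 5.04 and 3.36 to 4.42.

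With ethanol, all 10 members were lower in LL than in LD in each genotype, where 10.7% of all probe sets were called lower in ALC::TOC1 and 19.2% in wild type. Under mock 5 of 10 were lower in each, beside 11.4% and 14.4% of all probe sets. In LD ethanol raised 9 of 10 in ALC::TOC1 and 10 of 10 in wild type, where 8.31% and 11.2% of all probe sets were called higher. The probe set listed as HSP21 rose by 4.90 log2 (29.9-fold) in ALC::TOC1 and 3.11 (8.61-fold) in wild type, against mock levels at which background was not settled. In LL ethanol raised 0 of 10 members in ALC::TOC1, beside 6.45% of all probe sets, and 2 of 10 in wild type, beside 7.88%. Neither of these 2 was called once the GAPDH 3'/5' difference was a covariate.

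**Figure D1:**
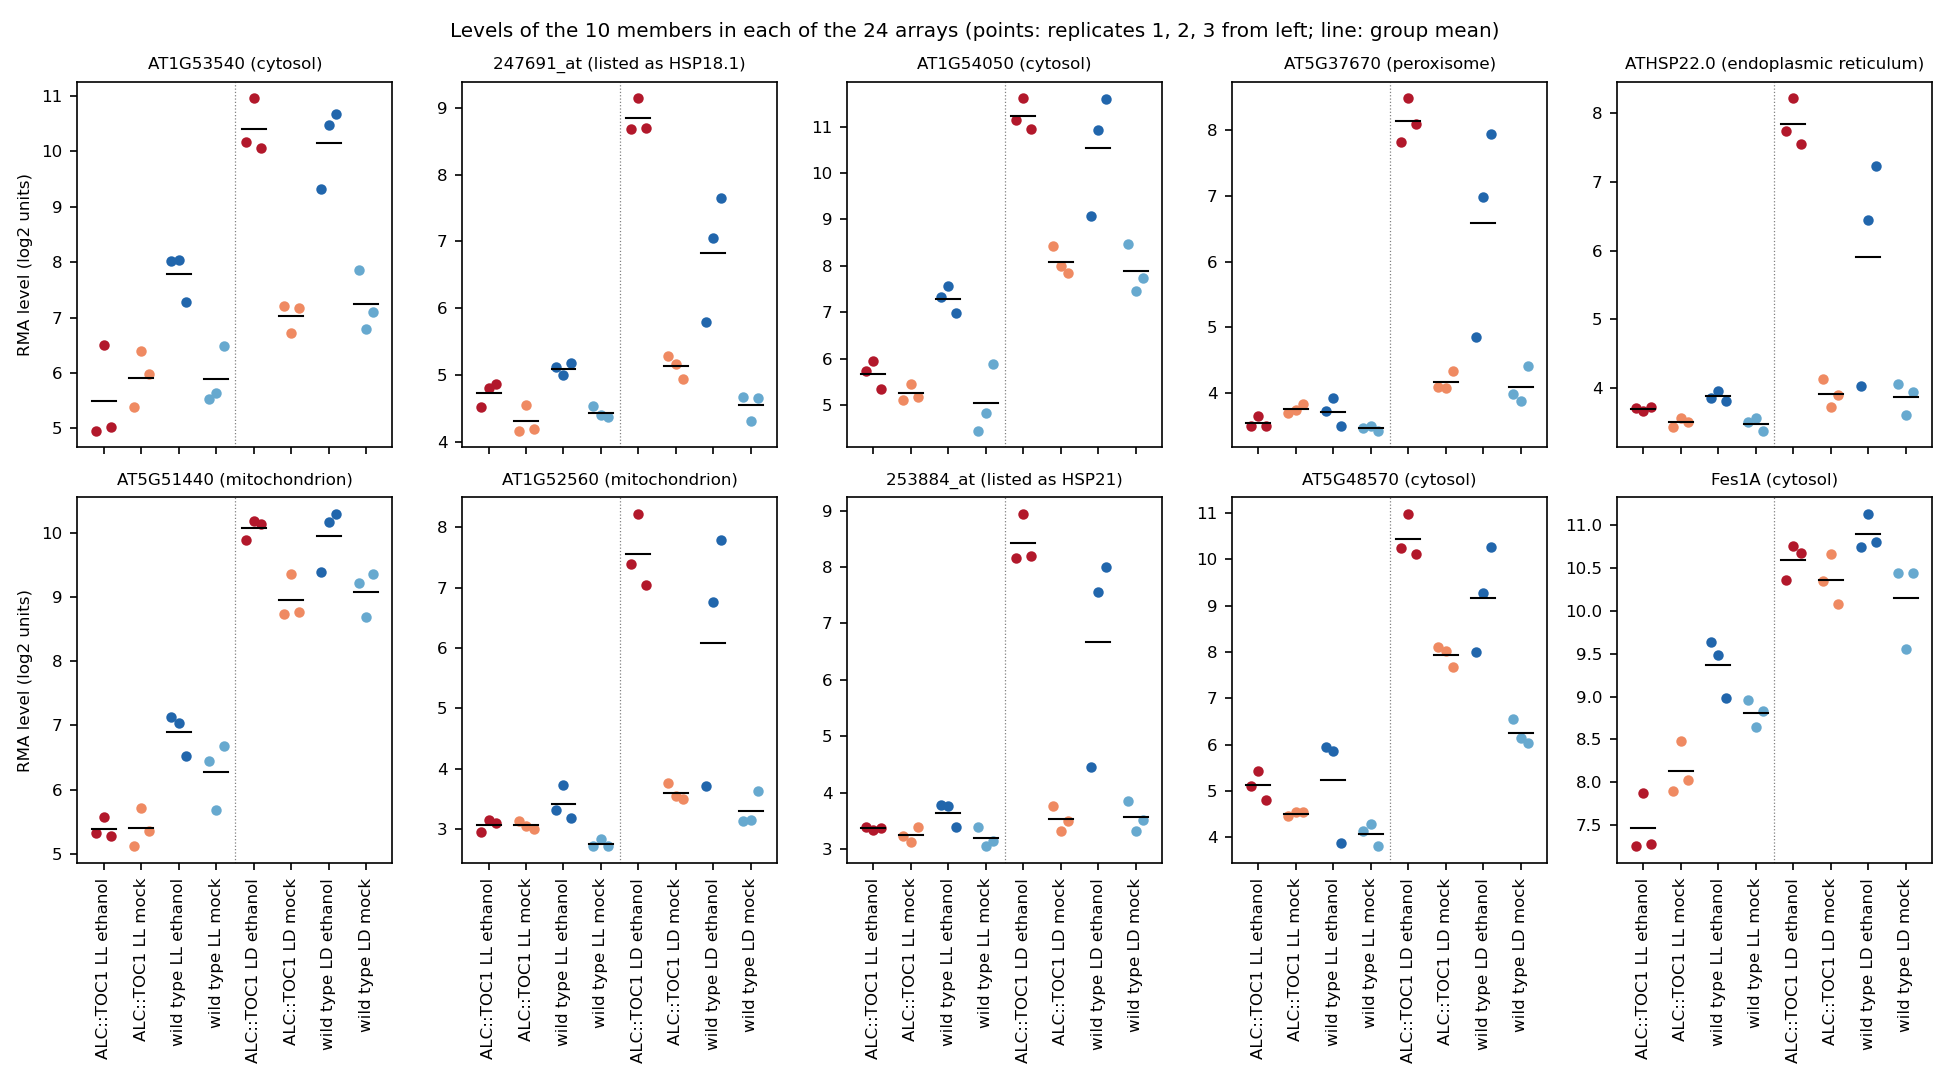
RMA level in log2 units (vertical axis) of each member in each of the 24 arrays, by group (horizontal axis, LL left of the dotted line and LD right of it). Points are replicates 1 to 3 from left to right and lines are group means. The red ALC::TOC1 LD ethanol points lie above all arrays other than those of wild-type LD ethanol for every member but Fes1A, and wild-type LD ethanol replicate 1 is the lowest of its group in all 10 panels.

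Among the cytosolic small heat shock proteins, AT1G53540 encodes a class I protein. In LL its level was 4.96, 6.51 and 5.02 in ALC::TOC1 with ethanol, against 5.39, 6.39 and 5.97 under mock. In wild type in LL it was 8.02, 8.05 and 7.29 with ethanol, against 5.54, 5.64 and 6.49 under mock. The wild-type ethanol arrays thus lay above all other LL arrays, while the ALC::TOC1 groups overlapped. In LD the level was 10.18, 10.96 and 10.06 in ALC::TOC1 with ethanol, against 7.21, 6.73 and 7.17 under mock. Wild type in LD gave 9.32, 10.47 and 10.67 with ethanol, against 7.86, 6.79 and 7.10 under mock. In LD the ethanol arrays of both genotypes were above every mock array. The ethanol effect was −0.42 ± 0.41 (adjusted p 0.594) in ALC::TOC1 and 1.90 ± 0.41 (adjusted p 0.00313) in wild type in LL, as log2 difference ± SE from limma with 3 arrays per group and a Benjamini-Hochberg adjusted p. In LD it was 3.36 ± 0.41 (adjusted p 5.9e-06) in ALC::TOC1 and 2.90 ± 0.41 (adjusted p 2.72e-05) in wild type.

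AT1G54050 is a class III small heat shock protein, found in cytosol and nucleus. Its LL levels in ALC::TOC1 were 5.74, 5.94 and 5.33 with ethanol, against 5.10, 5.46 and 5.18 under mock. Wild type in LL had 7.33, 7.56 and 6.99 with ethanol, against 4.44, 4.82 and 5.88 under mock. As for AT1G53540, wild-type ethanol arrays were the highest of the LL arrays, and the ALC::TOC1 ethanol and mock arrays overlapped. The LD levels in ALC::TOC1 were 11.14, 11.62 and 10.95 with ethanol, against 8.42, 8.0 and 7.85 under mock. For wild type in LD they were 9.08, 10.93 and 11.60 with ethanol, against 8.47, 7.45 and 7.74 under mock. The lowest LD mock array, at 7.45, lay above all LL arrays except wild-type ethanol replicate 2. The ethanol effect in LL was 0.42 ± 0.44 (adjusted p 0.617) in ALC::TOC1 and 2.24 ± 0.44 (adjusted p 0.0013) in wild type, and in LD it was 3.15 ± 0.44 (adjusted p 2.57e-05) and 2.65 ± 0.44 (adjusted p 0.000126) in the same order. The probe set listed as HSP18.1, a class I protein, stayed between 4.17 and 5.18 in the 12 LL arrays. Its LD levels were 8.69, 9.14 and 8.70 in ALC::TOC1 with ethanol, against 5.29, 5.16 and 4.94 under mock. In wild type in LD they were 5.79, 7.04 and 7.66 with ethanol, against 4.67, 4.31 and 4.66 under mock. Here every ALC::TOC1 LD ethanol array was above the other 21 arrays. The LD ethanol effect was 3.71 ± 0.28 (adjusted p 1.2e-08) in ALC::TOC1 and 2.28 ± 0.28 (adjusted p 4.31e-06) in wild type, and in LL it missed the threshold in both genotypes (0.42 ± 0.28 and 0.66 ± 0.28).

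AT5G37670, a small heat shock protein directed to peroxisomes, lay between 3.43 and 3.92 in all LL arrays. In LD it had 7.82, 8.49 and 8.09 in ALC::TOC1 with ethanol, against 4.10, 4.08 and 4.33 under mock. Wild type in LD had 4.85, 6.98 and 7.94 with ethanol, against 3.98, 3.88 and 4.41 under mock. The ethanol and mock arrays did not overlap in either genotype. ATHSP22.0, held in the endoplasmic reticulum, lay between 3.38 and 3.97 in LL. Its LD levels were 7.74, 8.22 and 7.55 in ALC::TOC1 with ethanol, against 4.14, 3.72 and 3.91 under mock. In wild type in LD they were 4.04, 6.45 and 7.22 with ethanol, against 4.07, 3.62 and 3.95 under mock, so that ethanol replicate 1 overlapped the mock arrays. In LD ethanol raised AT5G37670 by 3.96 ± 0.42 in ALC::TOC1 and 2.5 ± 0.42 in wild type, and ATHSP22.0 by 3.91 ± 0.44 and 2.03 ± 0.44 (adjusted p 0.00163). Whether levels under 4 log2 units exceed background was not tested, so the sizes of differences from such levels are uncertain. This holds for AT5G37670 in LL, and for ATHSP22.0, AT1G52560 and the probe set listed as HSP21 by their means in LL and under mock.

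AT1G52560 and AT5G51440 are both reported in mitochondria, and they differed in pattern. AT1G52560 lay between 2.71 and 3.74 in LL. In LD it stood at 7.38, 8.22 and 7.04 in ALC::TOC1 with ethanol, against 3.77, 3.55 and 3.5 under mock. Wild type in LD stood at 3.72, 6.76 and 7.78 with ethanol, against 3.13, 3.16 and 3.63 under mock, and ethanol replicate 1 was only just above the highest mock array. AT5G51440 had 5.11 to 7.13 in the 12 LL arrays and 8.69 to 10.31 in the 12 LD arrays, with no overlap. That held for 2 of 10 members, the other being AT5G48570, and for 2% of all probe sets. Its ethanol effect in LD was the smallest of the 8 small heat shock proteins among the members, 1.11 ± 0.26 (adjusted p 0.00426) in ALC::TOC1 and 0.87 ± 0.26 (adjusted p 0.0171) in wild type, against 3.94 ± 0.57 and 2.78 ± 0.57 for AT1G52560.

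The probe set listed as HSP21, a chloroplast protein, had the largest LD ethanol effect of the members in ALC::TOC1. It lay between 3.05 and 3.78 in the LL arrays. In LD the level was 8.17, 8.94 and 8.19 in ALC::TOC1 with ethanol, against 3.77, 3.32 and 3.5 under mock. Wild type in LD gave 4.45, 7.56 and 8.01 with ethanol, against 3.85, 3.33 and 3.52 under mock. Ethanol and mock arrays did not overlap in LD, and the 3 ALC::TOC1 LD ethanol arrays were above the other 21, which held for 3 of 10 members (the probe set listed as HSP18.1, ATHSP22.0 and the probe set listed as HSP21) and 0.589% of all probe sets. The LD effect was 4.90 ± 0.52 (adjusted p 9.38e-07) in ALC::TOC1 and 3.11 ± 0.52 (adjusted p 0.000141) in wild type. In wild type it was the highest of the members with all arrays, but without LD ethanol replicate 3 it was 2.44, against 2.64 for AT1G53540, and without replicate 2 it was also passed by AT1G53540 and AT5G48570. In LL it was 0.12 ± 0.52 in ALC::TOC1 and 0.45 ± 0.52 in wild type, and neither passed.

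The co-chaperones differed from one another. For AT5G48570, LL levels in ALC::TOC1 were 5.12, 5.44 and 4.82 with ethanol, against 4.45, 4.55 and 4.55 under mock. In wild type in LL they were 5.96, 5.87 and 3.88 with ethanol, against 4.14, 4.29 and 3.81 under mock, where ethanol replicate 3 lay among the mock arrays. In LD they were 10.24, 10.98 and 10.12 in ALC::TOC1 with ethanol, against 8.10, 8.03 and 7.68 under mock. LD wild type had 7.99, 9.27 and 10.26 with ethanol, against 6.56, 6.15 and 6.03 under mock. LD arrays exceeded all LL arrays with or without ethanol. The LD effect was 2.51 ± 0.45 (adjusted p 0.00043) in ALC::TOC1 and 2.93 ± 0.45 (adjusted p 6.64e-05) in wild type.

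With all arrays, Fes1A had the smallest ethanol effect of the members in LD. In LL it had 7.25, 7.87 and 7.28 in ALC::TOC1 with ethanol, against 7.90, 8.49 and 8.02 under mock. Wild type in LL had 9.64, 9.48 and 8.98 with ethanol, against 8.96, 8.65 and 8.83 under mock. The ethanol arrays lay below the mock arrays in ALC::TOC1 and above them in wild type, but neither effect passed, at −0.67 ± 0.23 (adjusted p 0.0561) and 0.55 ± 0.23 (adjusted p 0.119). In LD the values were 10.36, 10.75 and 10.67 in ALC::TOC1 with ethanol, against 10.35, 10.66 and 10.07 under mock. LD wild type had 10.75, 11.13 and 10.80 with ethanol, against 10.44, 9.56 and 10.44 under mock. Its LD effect was 0.23 ± 0.23 (adjusted p 0.571) in ALC::TOC1, where it was the member not called, and 0.75 ± 0.23 (adjusted p 0.0204) in wild type. Without wild-type LD ethanol replicate 3 the wild-type effect was 0.79, against 0.69 for AT5G51440.

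Across the members, the ethanol effect in LL had a median of 0.06 in ALC::TOC1 and 0.64 in wild type, beside medians of −0.01 and 0.02 over all probe sets. Calls in ALC::TOC1 in LL numbered 0 of 10 by limma, where 6.45% of all probe sets were called higher and 8.92% lower. There 1 member, Fes1A, had an unadjusted p under 0.05, as did 6031 of all 22746 probe sets. When the compared groups were fitted alone, AT5G48570 was called higher and Fes1A lower, and Fes1A was also called lower without ALC::TOC1 LL ethanol replicate 2. In wild type in LL, AT1G53540 and AT1G54050 were the 2 called members, where 7.88% of all probe sets were called higher. All 10 members had a positive value there, and in 6 the ethanol and mock arrays did not overlap, as in 16.6% of all probe sets. With GAPDH 3'/5' differences added as a covariate, 0 of 10 were called, AT1G53540 at 1.25 (adjusted p 0.105) and AT1G54050 at 1.17 (adjusted p 0.0622). Without wild-type LL ethanol replicate 3 the count was 4, with AT5G48570 and Fes1A added. The mock arrays of this comparison are the wild-type LL arrays with high GAPDH differences. GAPDH differences spread most within wild-type LD ethanol (SD 0.39, against 0.05 to 0.20 in the other groups), through its replicate 1. The covariate's slope for each gene thus leaned on that array wherever the covariate was used. With it, the wild-type LL ethanol effect of the probe set listed as HSP21 was −0.78, against 0.45 without it.

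In LD the members' median effect was 3.54 in ALC::TOC1 and 2.57 in wild type, against -0.0048 and -0.0025 over all probe sets. The 9 and 10 members called higher compare with 8.31% and 11.2% of all probe sets. In each genotype 9 of 10 members did not overlap between ethanol and mock, beside 16.6% of probe sets in ALC::TOC1 and 16.0% in wild type. With the GAPDH covariate the counts were again 9 and 10. Fitted on the compared groups alone, 6 wild-type calls were left, and AT5G51440, ATHSP22.0, AT1G52560 and Fes1A missed the threshold (adjusted p 0.0566 to 0.083). The AT5G51440 and Fes1A calls in wild type were lost without LD mock replicate 2 or LD ethanol replicate 2, and that of AT5G51440 also without LD ethanol replicate 3. Without wild-type LD ethanol replicate 1, 10 of 10 were still called, with 4.22 (adjusted p 2.13e-10) for the probe set listed as HSP21 and 3.97 (adjusted p 1.44e-08) for AT1G52560. Separate growth or treatment of the replicates is not stated in the labels, and all p-values measure only the spread between these samples.

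**Figure D2:**
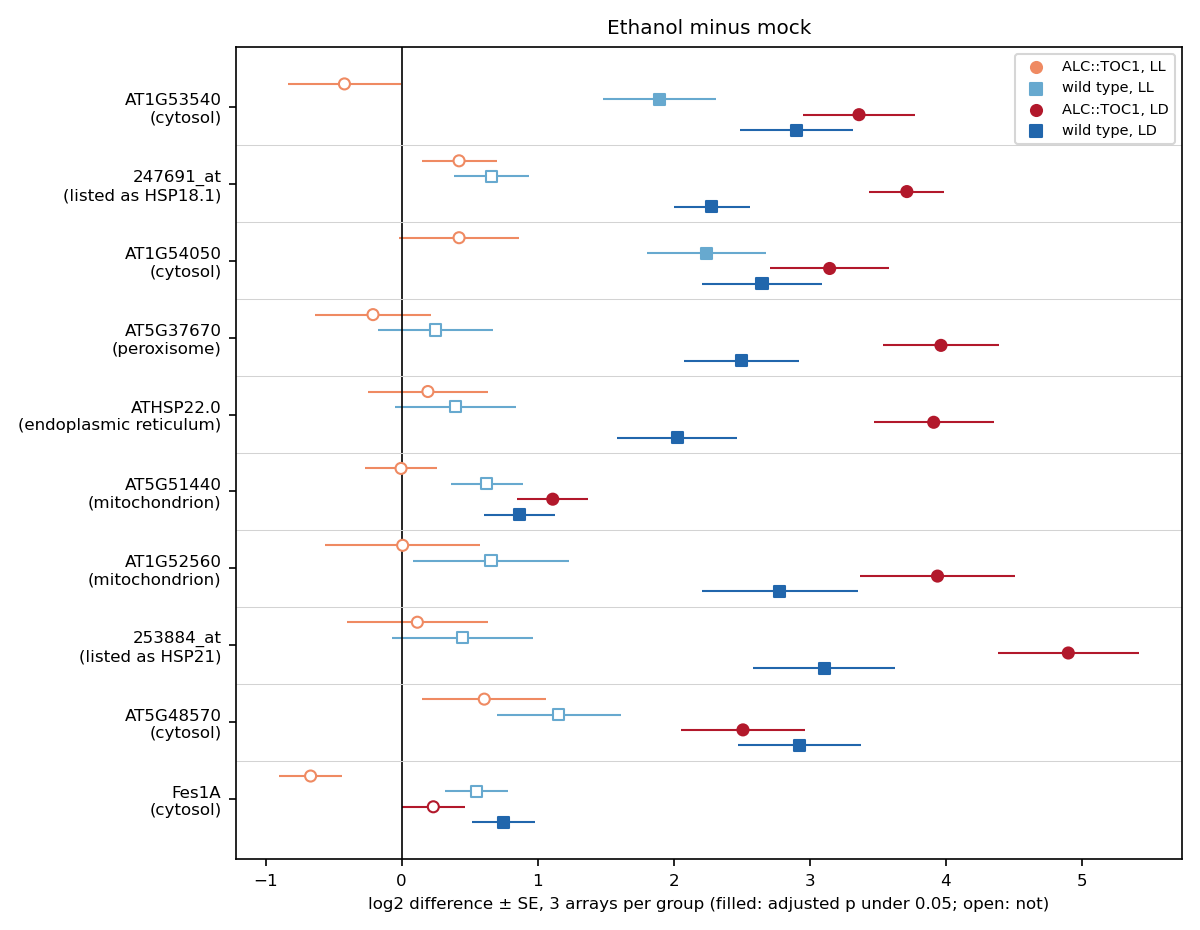
Difference between ethanol and mock in log2 units ± SE (horizontal axis) for each member (vertical axis) in 4 settings of 3 arrays per group, with filled symbols at an adjusted p under 0.05. LD symbols lie to the right of LL symbols of the same genotype for every member, and the probe set listed as HSP21 in ALC::TOC1 in LD reaches 4.90.

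Spread between replicates was uneven among the groups, and 6 of 10 members had their highest SD in wild-type LD ethanol. The SD of AT1G52560 was 2.12 log2 in wild-type LD ethanol, against 0.063 to 0.608 in the other 7 groups. For the probe set listed as HSP21 it was 1.94, against 0.027 to 0.443, and for ATHSP22.0 it was 1.66, against 0.031 to 0.345. The exceptions were AT1G53540, AT5G51440, AT5G48570 and Fes1A, the last with 0.208, against 0.155 to 0.509. As limma shares a spread per probe set over the 8 groups, the wild-type LD ethanol arrays enter the SE of these genes in every comparison.

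The members were also compared between light regimes. Under ethanol, 10 of 10 members were lower in LL than in LD in ALC::TOC1 and 10 of 10 in wild type, where 10.7% and 19.2% of all probe sets were called lower. The median difference was −4.64 in ALC::TOC1 and −2.77 in wild type, against 0.04 and −0.01 over all probe sets. AT1G54050 had the largest difference in ALC::TOC1, −5.57 ± 0.44 (adjusted p 1.25e-08), or 0.0211 times the LD level. In wild type the largest was that of AT5G48570, −3.94 ± 0.45 (adjusted p 7.35e-07). Fes1A had the smallest in both genotypes with all arrays, −3.13 ± 0.23 in ALC::TOC1 and −1.53 ± 0.23 in wild type. The wild-type rank was lost without LD ethanol replicate 3. Fes1A then stood at −1.58, against −1.32 for the probe set listed as HSP18.1 and −1.36 for ATHSP22.0.

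Under mock, 5 of 10 members were lower in LL in each genotype, beside 11.4% of all probe sets in ALC::TOC1 and 14.4% in wild type. AT1G54050, AT5G51440, AT5G48570 and Fes1A were called in both. AT5G51440 differed by −3.57 ± 0.26 (adjusted p 7.08e-09) in ALC::TOC1 and −2.82 ± 0.26 (adjusted p 1.52e-07) in wild type, and AT5G48570 by −3.42 ± 0.45 and −2.17 ± 0.45. The fifth call was the probe set listed as HSP18.1 in ALC::TOC1, at −0.82 ± 0.28 (adjusted p 0.0338), and AT1G53540 in wild type, at −1.36 ± 0.41 (adjusted p 0.0169). With the GAPDH covariate both were lost, the probe set listed as HSP18.1 at −0.59 (adjusted p 0.0587) and AT1G53540 at −0.82 (adjusted p 0.218). The call for the probe set listed as HSP18.1 was also lost without ALC::TOC1 LL mock replicate 1 or 3 or LD mock replicate 1 or 2, and the AT1G53540 call without wild-type LL mock replicate 1 or 2 or LD mock replicate 1. The 4 members that were called in neither genotype, AT5G37670, ATHSP22.0, AT1G52560 and the probe set listed as HSP21, differed by −0.63 to −0.28 and lay near or below 4 log2 units under mock. Fitted on the compared groups alone, AT1G52560 and AT5G37670 were called in both genotypes, and AT1G53540 and ATHSP22.0 were added in ALC::TOC1. Root markers differed between the light regimes too. In the LL-minus-LD comparison in ALC::TOC1, 2 of 3 were higher with ethanol and 3 of 3 under mock, beside 11.2% and 12.8% of all probe sets. In wild type, 3 of 3 were higher with ethanol and 2 of 3 under mock, beside 19.7% and 13.3%. Where called, the markers differed by 0.37 to 1.08 log2. Their part in the light differences was not tested, and in whole seedlings fewer cells of a type cannot be told apart from less RNA per cell.

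**Figure D3:**
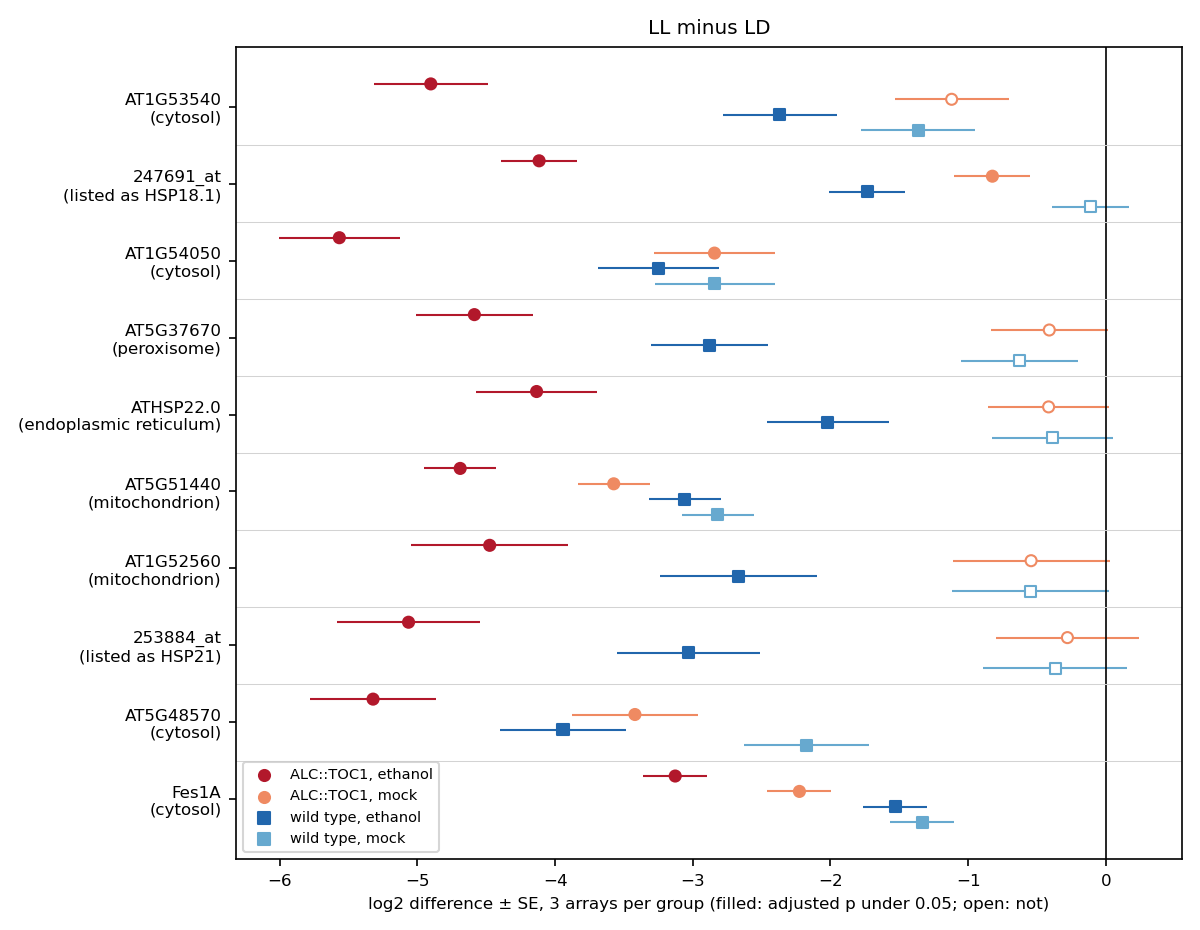
Difference between LL and LD in log2 units ± SE (horizontal axis) for each member (vertical axis), by genotype and treatment, with filled symbols at an adjusted p under 0.05. All 40 values are below 0, and within each genotype the ethanol value of every member is more negative than its mock value.

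The light by ethanol interaction, the ethanol effect in LL minus that in LD, tests whether the ethanol response itself differed between regimes. In ALC::TOC1 it was called for 7 of 10 members, all negative, beside 0.607% of all probe sets called lower. The values were −4.78 ± 0.73 (adjusted p 0.00148) for the probe set listed as HSP21, −4.17 ± 0.60 (adjusted p 0.00106) for AT5G37670 and −3.93 ± 0.81 (adjusted p 0.0171) for AT1G52560. AT1G53540 stood at −3.78 ± 0.59, ATHSP22.0 at −3.72 ± 0.62, the probe set listed as HSP18.1 at −3.29 ± 0.39 and AT1G54050 at −2.72 ± 0.62 (adjusted p 0.0339). AT5G51440 (−1.11 ± 0.37), AT5G48570 (−1.90 ± 0.64) and Fes1A (−0.90 ± 0.33) did not pass. Fitted on the compared groups alone, 9 were called, with AT5G48570 (adjusted p 0.00274) and AT5G51440 (adjusted p 0.0317) added, and with array weights all 10 were. Lower calls among the 22746 probe sets rose as well, from 138 to 301 with the compared groups alone and 644 with array weights. The AT1G54050 call was lost on leaving out any of the 12 arrays compared except ALC::TOC1 LL ethanol replicate 2 and LD ethanol replicate 3, and that of AT1G52560 without LD ethanol replicate 2.

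In wild type the interaction was called for 3 of 10 members, beside 2.36% of all probe sets called lower. They were the probe set listed as HSP18.1 at −1.62 ± 0.39 (adjusted p 0.018), AT5G37670 at −2.25 ± 0.60 (adjusted p 0.0301) and the probe set listed as HSP21 at −2.66 ± 0.73 (adjusted p 0.0351). The count was 0 when the compared groups were fitted alone, where lower calls among all probe sets also fell, from 536 to 213. It was 6 without wild-type LD ethanol replicate 1, with AT1G52560, ATHSP22.0 and AT5G48570 added. It was 1 without LL mock replicate 1 or 3, any single LL ethanol array, LD mock replicate 2 or LD ethanol replicate 2 of wild type, where AT5G37670 and the probe set listed as HSP21 both missed the threshold. AT5G37670 was also lost without LD mock replicate 1, and the probe set listed as HSP21 without LD mock replicate 3 or LD ethanol replicate 3. AT1G54050, which rose in wild type in LL too, had −0.41 ± 0.62 (adjusted p 0.778) here, and AT1G53540 had −1.0 ± 0.59 (adjusted p 0.35).

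Under ethanol, called differences between the genotypes were negative in LL and positive in LD, and concerned other members in each. Of those called in LD, AT5G37670, ATHSP22.0 and the probe set listed as HSP21 had LL means under 4 log2 units. Background was not settled at such levels, so a lower level in LL could be missed for them. Whether the genotype difference itself changed with the light regime was not tested. In LL with ethanol, 4 of 10 members were lower in ALC::TOC1 than in wild type, beside 12.8% of all probe sets. They were AT1G53540 at −2.29 ± 0.41 (adjusted p 0.00038), Fes1A at −1.90 ± 0.23 (adjusted p 5.79e-06), AT1G54050 at −1.62 ± 0.44 (adjusted p 0.00916) and AT5G51440 at −1.51 ± 0.26 (adjusted p 0.000255). All 10 members had a negative value, and 7 did not overlap between the genotypes, as in 18.9% of all probe sets. The 4 calls were also made with the GAPDH covariate and without each array in turn.

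In LD with ethanol, 4 of 10 were higher in ALC::TOC1, beside 8.02% of all probe sets. They were the probe set listed as HSP18.1 at 2.02 ± 0.28 (adjusted p 7.59e-05), ATHSP22.0 at 1.93 ± 0.44 (adjusted p 0.00556), the probe set listed as HSP21 at 1.76 ± 0.52 (adjusted p 0.0264) and AT5G37670 at 1.54 ± 0.42 (adjusted p 0.0179). Without wild-type LD ethanol replicate 1 the count was 2. The probe set listed as HSP18.1 then stood at 1.5 (adjusted p 3.05e-05) and ATHSP22.0 at 1.0 (adjusted p 0.00275), while the probe set listed as HSP21 stood at 0.65 (adjusted p 0.056) and AT5G37670 at 0.67 (adjusted p 0.0535). The same 2 were called with the GAPDH covariate. As the covariate leaned on wild-type LD ethanol replicate 1, it was not a check independent of leaving that array out. Leaving out wild-type LD ethanol replicate 3 instead gave 7 calls, leaving out ALC::TOC1 LD ethanol replicate 2 gave 2, leaving out its replicate 1 gave 3, and fitting the compared groups alone gave 1.

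**Figure D4:**
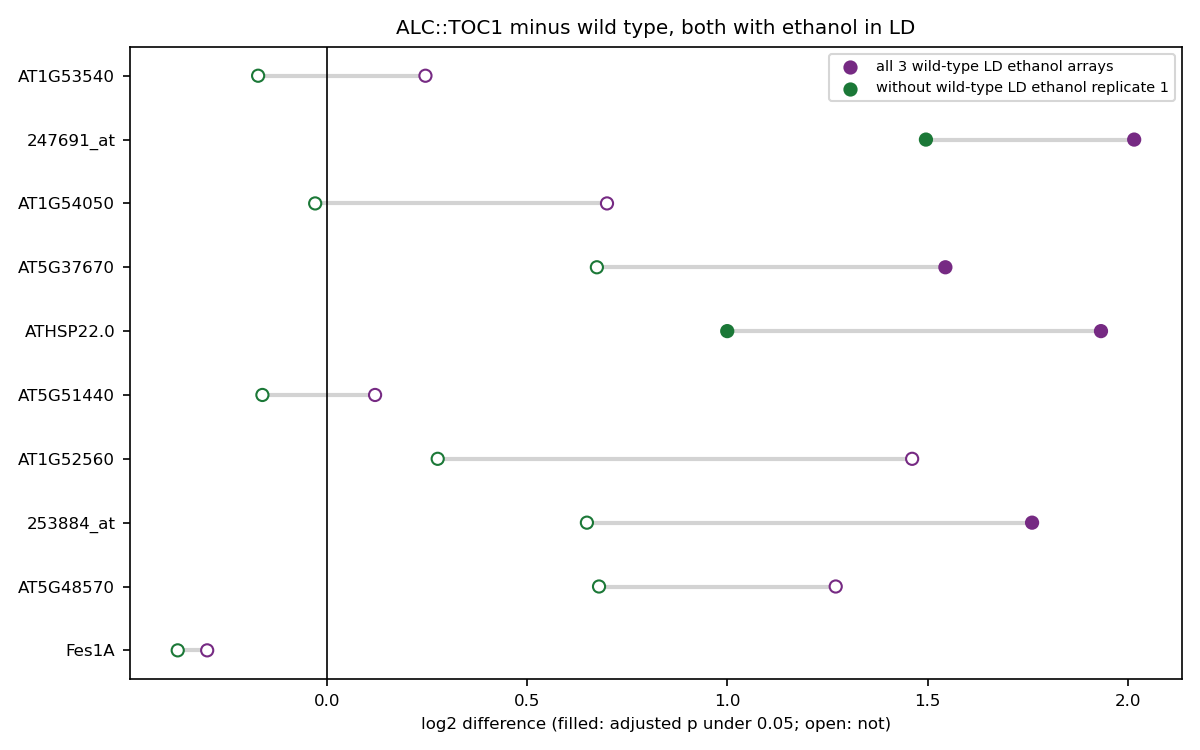
Difference between ALC::TOC1 and wild type, both with ethanol in LD, in log2 units (horizontal axis) for each member (vertical axis), from all arrays and without wild-type LD ethanol replicate 1, with filled points at an adjusted p under 0.05. Every value moves to the left without that array, which must follow, as it is the lowest of its group for every member. The probe set listed as HSP18.1 and ATHSP22.0 are the points that stay filled.

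Under mock the genotypes differed in few members. In LL 0 of 10 were called by limma, where 5.96% of all probe sets were called. AT5G51440 and Fes1A had an unadjusted p under 0.05, as did 4608 of all 22746 probe sets. AT5G51440 stood at −0.88 ± 0.26 (adjusted p 0.0504), and it was called after the dimmer probe sets were left out, with the GAPDH covariate at −1.30 (adjusted p 0.0195), and without replicate 2 of either LL mock group. In LD AT5G48570 was higher in ALC::TOC1 under mock, by 1.69 ± 0.45 (adjusted p 0.0304), the 1 call among 10 members beside 3.03% of all probe sets. The call was lost with the GAPDH covariate, with a mean-variance trend in the fit, and without wild-type LD mock replicate 2 or 3 or any single ALC::TOC1 LD mock array.

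Whether the ethanol response differed between genotypes was tested by the genotype by ethanol interaction, in which the wild-type effect is taken from the ALC::TOC1 effect. In LL all 10 values were negative and 1 passed, AT1G53540 at −2.32 ± 0.59 (adjusted p 0.0439), beside 0.932% of all probe sets called lower. Fes1A missed the threshold at −1.22 ± 0.33 (adjusted p 0.0608), as did AT1G54050 at −1.82 ± 0.62 (adjusted p 0.15). The AT1G53540 call was lost with the GAPDH covariate, −1.62 (adjusted p 0.211), after each array was centred on its median or quantile normalised again, and when ALC::TOC1 LL ethanol replicate 1 or 3, ALC::TOC1 LL mock replicate 2 or 3, or replicate 1 or 2 of either wild-type LL group was left out. Fes1A was called without wild-type LL ethanol replicate 3 or ALC::TOC1 LL ethanol replicate 2. In LD 0 of 10 passed by limma, where 0.413% of all probe sets were called. Of all 22746 probe sets, 2818 had an unadjusted p under 0.05, as did 4 of 10 members. The highest values were 1.89 ± 0.62 (adjusted p 0.204) for ATHSP22.0 and 1.79 ± 0.73 (adjusted p 0.305) for the probe set listed as HSP21. With array weights the probe set listed as HSP18.1 and ATHSP22.0 were called, and without wild-type LD ethanol replicate 3 there were 3 calls. Over all probe sets, array weights gave 335 higher and 207 lower calls, against 77 and 17 in the main fit.

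The members' levels ran together over the arrays, which share the group differences. Pearson's r between members over 24 arrays was 0.59 to 0.99 in 45 pairs, with a median of 0.88. It was highest for the probe set listed as HSP21 with ATHSP22.0 and lowest for Fes1A with ATHSP22.0. Over the 12 LD arrays the median was 0.92, and over the 12 LL arrays 0.61. AT1G54050 correlated with the mean of the other 9 members at 0.97, and Fes1A at 0.76. By group means, ALC::TOC1 with ethanol in LD was the highest of the 8 groups for 9 members, with wild-type LD ethanol next, and for Fes1A these groups changed places with overlapping arrays. In the TAIR10.1 annotation, 108 protein-coding genes stand between AT1G52560 and AT1G53540 on chromosome 1, and 62 between AT1G53540 and AT1G54050. The 2 probe sets without a gene name were not placed.

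Outside the members, the named genes whose levels ran most like the members' mean over 24 arrays were AT2G21640 (r = 0.97), AT1G30070 (0.97), AT2G29500 (0.97), AT1G66510 (0.96) and AT1G66080 (0.96). AT2G29500 is another cytosolic class I small heat shock protein, and AT1G66080 is related to Hikeshi, which carries HSP70 into the nucleus in human cells. AT2G21640 encodes a mitochondrial protein known to respond to oxidative stress. As these genes were chosen for likeness over the same arrays, their ethanol effects in LD only describe that choice. For AT2G29500 the difference was 2.52 in ALC::TOC1 and 2.61 in wild type, and for AT2G21640 it was 2.16 and 1.68.

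The wider heat shock pathway was only partly covered by named probe sets, with 5 of 13 other small heat shock proteins, 2 of 24 HSP60, HSP70, HSP90 and HSP100 chaperones, 6 of 16 other co-chaperones and heat response genes, and 0 of 20 heat shock factors. Of the 5 other small heat shock proteins, AT2G29500 and AT2G19310 rose with ethanol in LD in both genotypes, AT2G19310 by 0.93 ± 0.21 (adjusted p 0.00289) in ALC::TOC1 and 0.76 ± 0.21 (adjusted p 0.00941) in wild type. AT4G21870 had −0.35 ± 0.18 and −0.33 ± 0.18 and was not called. The list's median in LD was 0.10 in ALC::TOC1 and −0.06 in wild type, against 3.54 and 2.57 for the members. Neither HSP70 gene passed for ethanol in LD, with AT3G09440 at −0.06 ± 0.17 (adjusted p 0.866) in ALC::TOC1 and 0.18 ± 0.17 (adjusted p 0.499) in wild type, and Hsp70-2 at −0.33 ± 0.30 and 0.23 ± 0.30. Both were lower in LL than in LD in each genotype and treatment, AT3G09440 by −1.67 ± 0.17 in ALC::TOC1 and −0.68 ± 0.17 in wild type with ethanol.

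Among the 6 other co-chaperones and heat response genes, 4 rose and 1 fell with ethanol in LD in each genotype. Of all probe sets, 8.31% rose and 10.4% fell in ALC::TOC1, and 11.2% rose and 14.9% fell in wild type. AT2G20560, a J-domain protein that works with HSP70, rose by 1.18 ± 0.26 in ALC::TOC1 and 1.40 ± 0.26 (adjusted p 0.000361) in wild type. HSA32, needed for long-lasting acquired heat tolerance, rose by 1.48 ± 0.24 and 1.27 ± 0.24 (adjusted p 0.000516). ATERDJ3B, a J-domain protein of the endoplasmic reticulum, fell by 0.30 ± 0.10 in ALC::TOC1 (adjusted p 0.0461) and 0.54 ± 0.10 in wild type (adjusted p 0.000447), while the small heat shock protein of that compartment, ATHSP22.0, rose. In LL 1 of the 6 rose in ALC::TOC1, AT2G20560 at 0.79 ± 0.26 (adjusted p 0.0416), and 3 rose in wild type, beside 6.45% and 7.88% of all probe sets.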

How the data were processed

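The deposited values are log2 levels, made with RMA in the affy package per the submitters' processing notes, for 22810 probe sets on each of 24 arrays. The number of arrays, 3 per group, limits the precision. After 64 control probe sets were left out, 22746 were tested. The platform annotation gave 13513 of them 1 gene name, 503 several and 8730 none, and 13436 matched a RefSeq gene of TAIR10.1.

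One limma model (version 3.58.1, R 4.3.3) with 8 group means was fitted to all probe sets, with empirical Bayes moderated, two-sided tests. P-values were adjusted by Benjamini-Hochberg over all probe sets within a comparison, and an adjusted p under 0.05 was a call. Groups overlap unless every array of one lies beyond every array of the other. The named genes are the 10 members, up to 3 genes of each pathway list with the smallest adjusted p for ethanol in wild type in LD, and the 5 named genes most correlated with the members' mean. The members and lists were chosen with earlier results of these data known. The alternatives were a filter that left out the dimmer probe sets, quantile normalisation, median centring, a trended robust eBayes fit, array weights, a replicate block, the GAPDH 3'/5' difference as covariate, only the compared groups, and each array left out in turn. The fit was tested on simulated data.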

Additional observations from a re-analysis of the deposited data

Results flagged for a closer look

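Each value here is a difference between 2 ethanol effects, tested as an interaction in limma with 3 arrays per group, in log2 units. In ALC::TOC1 the ethanol effect in LL minus that in LD was −4.78 for the probe set listed as HSP21, −4.17 for AT5G37670, −3.93 for AT1G52560, −3.78 for AT1G53540, −3.72 for ATHSP22.0, −3.29 for the probe set listed as HSP18.1 and −2.72 for AT1G54050. In wild type the same difference was −2.66 for the probe set listed as HSP21, −2.25 for AT5G37670 and −1.62 for the probe set listed as HSP18.1. Between genotypes, the ethanol effects in LL differed by −2.32 for AT1G53540 (wild type taken from ALC::TOC1), for which wild-type arrays were higher with ethanol and ALC::TOC1 arrays overlapped with mock. Whether the light by ethanol difference itself differed between the genotypes was not tested.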

How the results depend on the processing

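No called member value changed direction under the alternatives run. With 1 array left out, 1125 member values stayed on their side of the threshold, 58 lost a call and 17 gained one. Under the other alternatives the numbers were 1151, 27 and 38. Counts of called members are given below. The number of calls over all probe sets changed with the alternatives too, so a changed count need not concern the members in particular. Ethanol in wild type in LL (2 called) gave 6 with array weights, 0 with the GAPDH covariate, 5 with only the compared groups, and 2 to 4 with 1 array left out. In wild type in LD (10) it gave 6 with the filter on dim probe sets, 6 with only the compared groups, and 8 to 10 with 1 array left out. In ALC::TOC1 in LL (0) it gave 1 with the filter, 1 with array weights, 2 with only the compared groups, and 0 to 1 with 1 array left out. In ALC::TOC1 in LD (9) the filter gave 5. The genotype difference under mock in LL (0) gave 1 with the filter, 1 with the GAPDH covariate, and 0 to 1 with 1 array left out, and in LD (1) it gave 0 with the trended fit, 0 with the GAPDH covariate, 2 with only the compared groups, and 0 to 1 with 1 array left out. Under ethanol in LD (4) it gave 2 with the filter, 2 with the GAPDH covariate, 1 with only the compared groups, and 2 to 7 with 1 array left out. The light difference under ethanol gave 6 with the filter in ALC::TOC1 (10) and 6 in wild type (10), and under mock in ALC::TOC1 (5) it gave 9 with only the compared groups and 4 to 6 with 1 array left out. The genotype by ethanol interaction in LL (1) gave 2 with the filter, 3 with array weights, 0 with quantile normalisation, centring, the trended fit, the GAPDH covariate or only the compared groups, and 0 to 2 with 1 array left out. In LD (0) it gave 2 with array weights and 0 to 3 with 1 array left out. The light by ethanol interaction in ALC::TOC1 (7) gave 3 with the filter, 9 with only the compared groups, 10 with array weights and 5 to 7 with 1 array left out. In wild type (3) it gave 1 with the filter, 1 with the trended fit, 5 with the GAPDH covariate, 0 with only the compared groups, and 1 to 6 with 1 array left out. The filter left out 4 members (AT5G37670, ATHSP22.0, AT1G52560 and the probe set listed as HSP21), which had no value under it, and where its counts were higher, as for the other alternatives, the cause was not tested. Same-numbered arrays did not deviate together (r −0.40 to 0.49, median −0.002, 84 pairs), so the numbers were not taken as pairs, and a fit with the replicate number as a block changed no member's call and left counts of 2 (wild type, LL), 10 (wild type, LD), 0 (ALC::TOC1, LL) and 9 (ALC::TOC1, LD) for ethanol. Centring each array on its median changed the percentage of all calls that were higher by 10 or more points for ethanol in wild type in LD (42.8 uncentred, 63.8 centred), ALC::TOC1 in LL (41.9, 64.1) and ALC::TOC1 in LD (44.4, 56.9), the genotype difference under ethanol in LL (47.8, 61.3) and LD (56.0, 40.6), the light difference in wild type under ethanol (50.7, 38.2), the genotype by ethanol interaction in LL (50.4, 66.9) and LD (81.9, 71.9), and the light by ethanol interaction in wild type (60.2, 42.9) and ALC::TOC1 (39.5, 50.5). Array medians shifted by −0.117 log2 for ethanol in wild type in LD and 0.104 for light in wild type under ethanol. Among members it ended the AT1G53540 interaction call only. There were 3 arrays per group, and whether the levels of 4 members in LL exceed background was not tested.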
